A study of Mus musculus with 22 samples.

Results

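The cerebrum and the cerebellum of wild-type (WT) mice are compared here gene by gene. The cerebrum holds the cortex, hippocampus and striatum, and the cerebellum holds granule and Purkinje cells. The cerebrum libraries were uneven in striatal genes, which were high in WT 3 alone. Of 24 forebrain transcription factors tested 21 were higher in cerebrum (beside 24.2% of all genes), among them Fezf2, Dlx2 and Tbr1, and of 19 excitatory neuron genes 17, with Fezf2 higher by a log2 fold change of 9.38 (standard error 0.62, 4 libraries against 4). The cerebellum libraries together held 4 counts of Fezf2, so the size of this fold is uncertain. Of 21 cerebellar transcription factors 20 were higher in cerebellum (beside 25.6% of all genes), En2 among them, of 20 granule cell genes 17, with Gabra6, and of 24 Purkinje cell genes 21, with Ppp1r17. For En2 the log2 fold change was -7.23 (standard error 0.44). Listed genes with almost no counts in a tissue passed the count filter through the other tissue, which fixed their direction. The list counts in this paragraph are thus descriptions and no test. Forebrain interneuron genes went both ways, 11 of 20 higher in cerebrum and 3 in cerebellum. The 8 WT brain libraries, 4 of each tissue, were taken of 22 in the series, and 15877 of 34584 genes had enough counts to be tested. The series studies the Tol mouse, a C57BL/6 line that carries a transgene of scrambled reporter proteins. The WT mice are littermates of Tol mice. RNA came from frozen tissue and was read after poly(A) selection with a strand-preserving library kit. The labels do not say whether the same number marks the same mouse in both tissues, so the tissues were compared as separate groups.

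Levels are CPM, counts scaled to a common library size after TMM normalisation, which evens out library composition. For each gene 4 values are given per tissue, in the order WT 1 to WT 4. A log2 fold change is positive where the cerebrum is higher, and 1 unit is a doubling. A gene is called where the adjusted p is under 0.05. Genes whose exons overlap those of another gene are marked, because the labels do not state whether counting used the strand. A bulk library cannot tell fewer cells of a type from less RNA per cell.

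Of 15877 genes, 7899 were called (49.8%), 3842 higher in cerebrum (24.2%) and 4057 higher in cerebellum (25.6%). Every list count below is to be read beside these shares, and no list was tested against them. An absolute log2 fold change over 1 was reached by 2933 of the called genes (18.5%), 1627 higher in cerebrum and 1306 higher in cerebellum. Over 16-fold, 176 genes were higher in cerebrum and 125 in cerebellum. In 7538 genes (47.5%) the libraries of the tissues did not overlap. The median log2 fold change over all genes tested was -0.04. A test that the size itself exceeds a log2 fold change of 1 called 1469 genes against the 2933 counted by fitted value. Counts of called genes ran from 6738 without cerebellum WT 3 to 8482 without cerebellum WT 2.

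Several libraries stand apart from the others of their tissue, which bears on the values that follow. Striatal projection neurons are the main cells of the striatum, and the list of their 19 genes summed to 855.5, 970, 6351 and 924.5 CPM in cerebrum and 791, 703, 636.2 and 698.1 CPM in cerebellum. Cerebrum WT 3 was above the other 3 cerebra. Its most abundant member was Pde10a at 966.1 CPM, while Gnal led in the other libraries. Drd2, a dopamine receptor of the list, stood at 2.08, 1.895, 114 and 1.71 CPM in cerebrum and 11.2, 2.78, 0.773 and 0.476 CPM in cerebellum. Isl1, a striatal LIM factor, had 0 counts in cerebrum WT 1, WT 2 and WT 4 and 4.22 CPM in WT 3.

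Cerebellum WT 2 was apart in several lists. Hox genes pattern the hindbrain and spinal cord, and the 39 listed summed to 1.787, 0.8293, 2.03 and 1.706 CPM in cerebrum and 1.977, 28.3, 2.072 and 2.858 CPM in cerebellum. Its most abundant member was Hoxb3 (exons overlapping another gene, value uncertain) at 5.92 CPM in cerebellum WT 2, and none of the 39 was tested in the main comparison. The list of 12 oligodendrocyte genes, the myelinating cells, summed to 5295, 7490, 6737 and 5002 CPM in cerebrum and 5055, 17260, 6444 and 7068 CPM in cerebellum. Mbp, a myelin protein and the most abundant member, stood at 1990.0, 2958, 2606 and 1850.0 CPM in cerebrum and 2022, 6982, 2561 and 2823 CPM in cerebellum. Granule cell genes, 20 in the list, summed to 2279, 2208, 2087 and 2214 CPM in cerebrum and 8434, 4966, 10510 and 8803 CPM in cerebellum, with cerebellum WT 2 lowest among the cerebella. Whether tissue outside the cerebellum is in this library was not tested.

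Cerebellum WT 1 was apart in the list of thalamic and midbrain transcription factors, 30 genes that summed to 303.3, 180.6, 227.2 and 246.9 CPM in cerebrum and 429.3, 234.3, 211.4 and 224.2 CPM in cerebellum. Tcf7l2, a thalamic factor, stood at 4.02, 4.86, 3.46 and 4.29 CPM in cerebrum and 123.3, 5.88, 3.93 and 4.64 CPM in cerebellum, and Shox2 (exons overlapping another gene, value uncertain) at 27.4 CPM in cerebellum WT 1 against 0.0351 to 0.926 CPM in the other cerebella. Tcf7l2 was not called (log2 fold change -3.05, standard error 1.18, adjusted p = 0.0585). Tcf7l2 gave -0.19 without cerebellum WT 1, and was called without cerebellum WT 2 (-3.396), WT 3 (-3.42) or WT 4 (-3.41). Tcf7l2 was not called without cerebrum WT 3 and cerebellum WT 2 together (-3.32, adjusted p = 0.0824). The choroid plexus makes cerebrospinal fluid. The list of 12 choroid plexus genes also covers ependyma. It summed to 216, 336, 282.8 and 239.1 CPM in cerebrum and 172.1, 2415, 200.4 and 6802 CPM in cerebellum, high in cerebellum WT 2 and WT 4.

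Forebrain transcription factors set the identity of cortical and striatal cells. Of 24 forebrain transcription factors tested, 21 were higher in cerebrum, 0 in cerebellum and 3 were not called, with median log2 change 5.27 (all genes -0.04). In the cerebellum libraries 5, 7, 8 and 7 of the 24 held under 3 counts, against 0 in each cerebrum library. Members this low in cerebellum passed the count filter through cerebrum, so their direction followed from the filter. Forebrain transcription factors called for cerebrum and cerebellum numbered 21 and 1 without cerebellum WT 2. The median of forebrain transcription factors was 5.86 without cerebellum WT 1. All 21 changed by more than a log2 fold change of 1. Fezf2, a zinc finger factor of deep-layer cortical neurons, stood at 39.5, 22.3, 13.7 and 41.5 CPM in cerebrum and 0.03801, 0.0805, 0.0351 and 0 CPM in cerebellum. Fezf2 was higher in cerebrum (log2 fold change 9.38, standard error 0.62, adjusted p = 1.37e-05), above every cerebellum library. Its counts over the groups were 2175 in cerebrum against 4 in cerebellum, so the size of its fold is uncertain. Dlx2, a homeobox factor of the ventral forebrain, stood at 4.12, 4.86, 3.35 and 3.03 CPM in cerebrum and 0, 0, 0 and 0 CPM in cerebellum. Dlx2 was at least 134.1-fold higher in cerebrum, taking a floor of 3 counts over the cerebellum group (adjusted p = 5.33e-05). The levels of Tbr1, a T-box factor of excitatory cortical neurons, were 127, 168, 146 and 171 CPM in cerebrum and 1.102, 1.33, 1.09 and 2.104 CPM in cerebellum. For Tbr1 the cerebrum was higher (log2 fold change 6.76, standard error 0.23, adjusted p = 1.38e-06), without overlap between the tissues.

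Dlx1 (a partner of Dlx2, exons overlapping another gene, value uncertain) was measured at 39.8, 37.7, 31.1 and 37.9 CPM in cerebrum and 0.114, 0.282, 0.0702 and 0.476 CPM in cerebellum. Dlx1 levels in cerebrum exceeded all cerebellum values (log2 fold change 7.28, standard error 0.36, adjusted p = 5.94e-06). Dlx1 gave 7.88 without cerebellum WT 4.

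Cerebellar transcription factors act in granule and Purkinje cells and in the midbrain-hindbrain boundary. Of 21 cerebellar transcription factors tested (of 25 listed), 0 were higher in cerebrum, 20 in cerebellum and 1 was not called, with median log2 change -4.86. In the cerebrum libraries 7, 11, 10 and 5 of the 25 held under 3 counts, against 2 in each cerebellum library. Tested members this low in cerebrum passed the count filter through cerebellum, so their direction followed from the filter. The median of cerebellar transcription factors was -5.75 (22 tested) without cerebrum WT 1. Lhx1, a LIM factor of Purkinje cells, stood at 0.199, 0, 0.0549 and 0.2202 CPM in cerebrum and 64.4, 30.95, 64.2 and 57.9 CPM in cerebellum. For Lhx1 the cerebellum was higher (log2 fold change -8.73, standard error 0.47, adjusted p = 7.12e-06), without overlap between the tissues. The levels of Barhl1, a homeobox factor of granule cells, were 0, 0, 0 and 0.275 CPM in cerebrum and 19.5, 10.02, 13.5 and 14.6 CPM in cerebellum. Barhl1 levels in cerebellum exceeded all cerebrum values (log2 fold change -7.61, standard error 0.65, adjusted p = 3.82e-05). Without cerebrum WT 4 the other 3 cerebrum libraries held 0 counts of Barhl1, and no fold is given. En2 (an engrailed factor of the midbrain and cerebellum) was measured at 0.199, 0.711, 0.494 and 1.38 CPM in cerebrum and 104, 60.6, 125 and 125 CPM in cerebellum. En2 was higher in cerebellum (log2 fold change -7.23, standard error 0.44, adjusted p = 1.12e-05), above every cerebrum library.

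All 5 Zic factors, and the tested members of the Pax and Iroquois families, were higher in cerebellum. In cerebrum the 6 Iroquois factors summed to 0.4963, 0.6516, 0.4938 and 0.8257 CPM. Pax6 made up most of the Pax sum there (7.048 of 7.842 CPM in WT 1). The Iroquois factors, and the Pax factors other than Pax6, thus passed the count filter through cerebellum. Their shared direction followed from the filter and is not read as a family result. Of 5 Zic factors tested, 0 were higher in cerebrum, 5 in cerebellum and 0 were not called, with median log2 change -4.62. Of 3 Pax factors tested (of 9 listed), 0 were higher in cerebrum, 3 in cerebellum and 0 were not called, with median log2 change -5.45. Of 4 Iroquois factors tested (of 6 listed), 0 were higher in cerebrum, 4 in cerebellum and 0 were not called, with median log2 change -5.48. Zic1, a zinc finger factor of the cerebellum, exons overlapping another gene, value uncertain, stood at 7.79, 4.21, 8.72 and 10.8 CPM in cerebrum and 759, 458, 908 and 846 CPM in cerebellum. Zic1 levels in cerebellum exceeded all cerebrum values (log2 fold change -6.56, standard error 0.36, adjusted p = 7.99e-06). The levels of Pax6, a paired-box factor of granule cells, were 7.05, 7.52, 5.82 and 9.41 CPM in cerebrum and 74.1, 49.3, 90.6 and 87.7 CPM in cerebellum. Pax6 was higher in cerebellum (log2 fold change -3.34, standard error 0.23, adjusted p = 1.56e-05), above every cerebrum library. Irx2 (an Iroquois factor of the hindbrain) was measured at 0.0496, 0, 0.0549 and 0.05504 CPM in cerebrum and 13.2, 13.97, 5.62 and 5.2 CPM in cerebellum. For Irx2 the cerebellum was higher (log2 fold change -7.68, standard error 0.64, adjusted p = 3.26e-05), without overlap between the tissues. Its counts over the groups were 984 in cerebellum against 3, a ratio of 230 with a 95% counting interval of 78.4 to 1120.

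Of 5 LIM homeobox factors tested (of 12 listed), 2 were higher in cerebrum, 2 in cerebellum and 1 was not called, with median log2 change -2.99. The median of LIM homeobox factors was -3.71 without cerebrum WT 4 and -0.79 without cerebellum WT 1. Of 5 Dlx factors tested (of 6 listed), 4 were higher in cerebrum, 1 in cerebellum and 0 were not called, with median log2 change 7.28. In cerebellum the 6 Dlx factors summed to 1.673, 1.53, 2.423 and 2.223 CPM, with Dlx4 most abundant in each library. The members higher in cerebrum thus passed the count filter through cerebrum. Their shared direction is not read as a family result. Dlx factors called for cerebrum and cerebellum numbered 4 and 0 without cerebrum WT 2, cerebrum WT 4, cerebellum WT 3 or cerebellum WT 4. The median of Dlx factors was 7.88 without cerebellum WT 4. Dlx4 (exons overlapping another gene, value uncertain) was the exception. Of 15 thalamic and midbrain transcription factors tested (of 30 listed), 2 were higher in cerebrum, 8 in cerebellum and 5 were not called, with median log2 change -2.99. The 8 include the 4 tested Iroquois factors, whose direction followed from the filter, and Tfap2b, which was low in cerebrum. The count and median are thus not read as a list result. The median of thalamic and midbrain transcription factors was -1.12 without cerebellum WT 1. Tfap2b, an AP-2 factor of cerebellar interneurons, stood at 0.347, 0.296, 0.549 and 1.27 CPM in cerebrum and 46.99, 31.2, 59.8 and 48.6 CPM in cerebellum. Tfap2b was higher in cerebellum (log2 fold change -6.24, standard error 0.40, adjusted p = 1.26e-05), above every cerebrum library. Tfap2b gave -6.85 without cerebrum WT 4. Of 6 Ebf and Tfap2 factors tested (of 9 listed), 0 were higher in cerebrum, 5 in cerebellum and 1 was not called, with median log2 change -4.43. Ebf and Tfap2 factors called for cerebrum and cerebellum numbered 1 and 5 without cerebrum WT 3. The levels of Nr4a2, an orphan nuclear receptor, were 197, 47.3, 107 and 139 CPM in cerebrum and 27.3, 22.6, 21.5 and 34.7 CPM in cerebellum. For Nr4a2 the cerebrum was higher (log2 fold change 2.21, standard error 0.39, adjusted p = 0.00167), without overlap between the tissues.

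The forkhead, POU and proneural bHLH families were called at 54.2%, 50.0% and 54.5%, near the 49.8% of all genes, so their counts are not read as a family difference. Of 24 forkhead factors tested (of 44 listed), 7 were higher in cerebrum, 6 in cerebellum and 11 were not called, with median log2 change -0.10. Forkhead factors called for cerebrum and cerebellum numbered 4 and 6 (26 tested) without cerebrum WT 3 and 4 and 6 (25 tested) without cerebellum WT 4. Of 16 Sox factors tested (of 19 listed), 8 were higher in cerebrum, 2 in cerebellum and 6 were not called, with median log2 change 0.42. Sox factors called for cerebrum and cerebellum numbered 7 and 1 without cerebrum WT 2, cerebrum WT 3, cerebellum WT 1, cerebellum WT 3 or cerebellum WT 4. The 19 listed summed to 301.8 CPM in cerebellum WT 2, apart from 214.7 to 228 CPM in the other 3. Of 8 POU factors tested (of 15 listed), 3 were higher in cerebrum, 1 in cerebellum and 4 were not called, with median log2 change 1.02. POU factors called for cerebrum and cerebellum numbered 5 and 1 without cerebellum WT 2. Of 11 proneural bHLH factors tested (of 23 listed), 3 were higher in cerebrum, 3 in cerebellum and 5 were not called, with median log2 change -0.37. Proneural bHLH factors called for cerebrum and cerebellum numbered 5 and 5 without cerebellum WT 2. The median of proneural bHLH factors was 0.00913 (12 tested) without cerebrum WT 3.

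Nuclear receptors are transcription factors that bind hormones and lipids, and were called at 51.4%, also near all genes. Of 37 nuclear receptors tested (of 45 listed), 12 were higher in cerebrum, 7 in cerebellum and 18 were not called, with median log2 change 0.23. Nr2e1 (the tailless receptor of neural stem cells) was measured at 17.1, 19.7, 18.2 and 18 CPM in cerebrum and 1.52, 0.765, 0.492 and 0.715 CPM in cerebellum. Nr2e1 levels in cerebrum exceeded all cerebellum values (log2 fold change 4.38, standard error 0.29, adjusted p = 1.48e-05). Thrb, a thyroid hormone receptor, stood at 88.2, 89.8, 66.7 and 82.2 CPM in cerebrum and 18.8, 19.6, 10.7 and 14.3 CPM in cerebellum. For Thrb the cerebrum was higher (log2 fold change 2.37, standard error 0.20, adjusted p = 3.69e-05), without overlap between the tissues. The levels of Rxrg, a retinoid X receptor of the striatum, were 3.03, 1.13, 65.9 and 4.51 CPM in cerebrum and 1.14, 1.57, 0.211 and 0.278 CPM in cerebellum. Rxrg was higher in cerebrum (log2 fold change 4.55, standard error 1.38, adjusted p = 0.0231), with overlap between the libraries of the tissues. Rxrg lost its call without cerebrum WT 3 (1.86, adjusted p = 0.0703), cerebellum WT 3 (4.24, adjusted p = 0.0601) or cerebellum WT 4 (4.29, adjusted p = 0.0604). Rxrg was called without cerebrum WT 1, cerebrum WT 2, cerebrum WT 4, cerebellum WT 1 or cerebellum WT 2 (4.81 to 5.11, adjusted p = 0.0145 to 0.0492). Rxrg was called without cerebrum WT 3 and cerebellum WT 2 together (2.41, adjusted p = 0.0306).

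**Figure D1:**
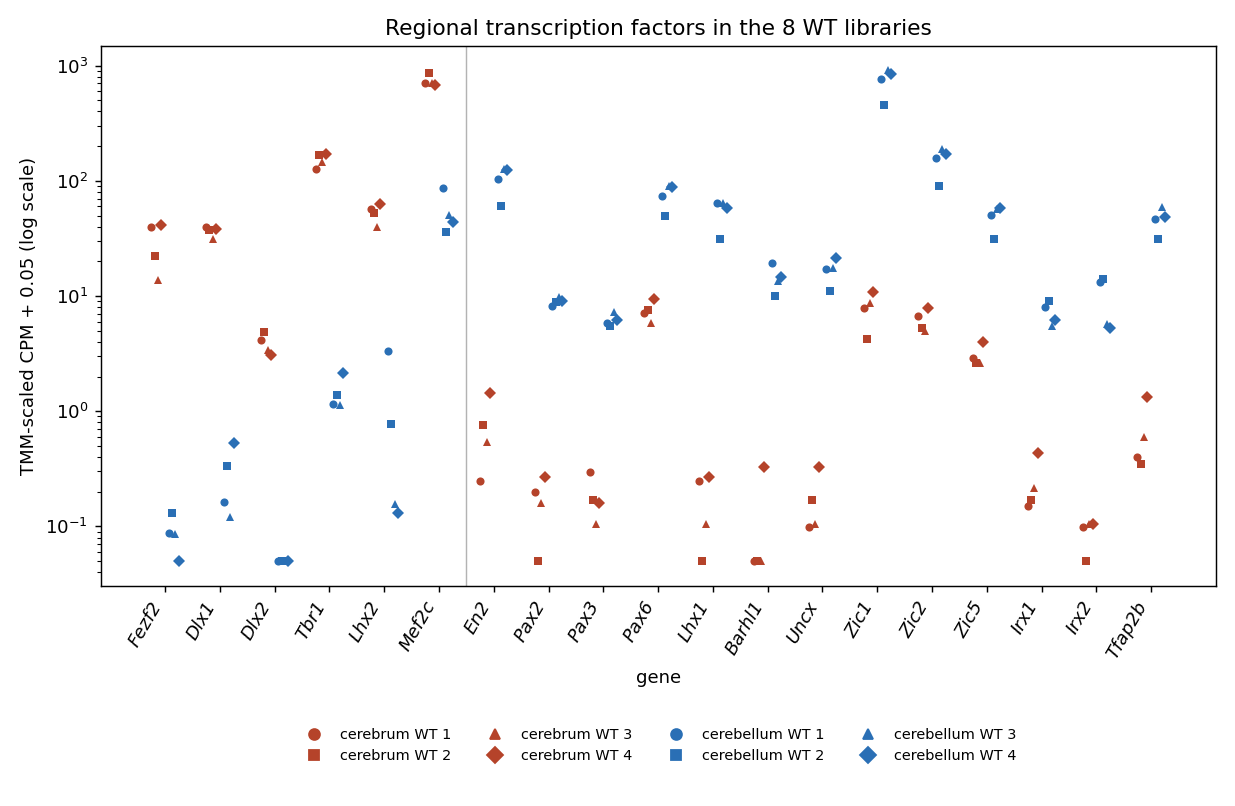
CPM + 0.05 on a log axis for regional transcription factors, with 1 point per WT library, cerebrum in red and cerebellum in blue. Genes left of the grey line are higher in cerebrum and genes right of it are higher in cerebellum, as Fezf2 and En2 are.

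Granule cells are the small excitatory neurons of the cerebellar cortex. Of 20 granule cell genes tested, 1 was higher in cerebrum, 17 in cerebellum and 2 were not called, with median log2 change -3.06. Gabra6 (a GABA-A receptor subunit of granule cells) was measured at 0, 0, 0.219 and 4.84 CPM in cerebrum and 574, 307, 726 and 619.9 CPM in cerebellum. Gabra6 was higher in cerebellum (log2 fold change -8.78, standard error 1.12, adjusted p = 0.00031), above every cerebrum library. Gabra6 gave -12.80 without cerebrum WT 4, with 4 counts left in cerebrum, so that size is uncertain. Fat2, a protocadherin of granule cells, stood at 0.893, 0.118, 0.274 and 7.05 CPM in cerebrum and 799.7, 451, 1147 and 801 CPM in cerebellum. Fat2 levels in cerebellum exceeded all cerebrum values (log2 fold change -8.58, standard error 1.04, adjusted p = 0.000231). Fat2 gave -10.78 without cerebrum WT 4. The levels of Slc17a7, the vesicular glutamate transporter of cortical excitatory neurons and also of granule cells, were 1226, 1214, 996 and 1220.4 CPM in cerebrum and 388, 238, 486 and 418 CPM in cerebellum. Slc17a7 was higher in cerebrum (log2 fold change 1.61, standard error 0.20, adjusted p = 0.000306), above every cerebellum library. Slc17a7 was the member of the granule list that was higher in cerebrum.

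Purkinje cells are the output neurons of the cerebellar cortex. The 24 Purkinje genes summed to 2172, 2561, 3075 and 2511 CPM in cerebrum and 13370, 7088, 15050 and 13380 CPM in cerebellum, with Itpr1 most abundant in every library. Of 24 Purkinje cell genes tested, 0 were higher in cerebrum, 21 in cerebellum and 3 were not called, with median log2 change -2.78. Ppp1r17 (a phosphatase inhibitor of Purkinje cells) was measured at 0.248, 0.0592, 0 and 1.82 CPM in cerebrum and 228, 97.2, 243 and 222 CPM in cerebellum. For Ppp1r17 the cerebellum was higher (log2 fold change -8.52, standard error 0.76, adjusted p = 5.13e-05), without overlap between the tissues. Ppp1r17 gave -10.76 without cerebrum WT 4, with 6 counts left in cerebrum, so that size is uncertain. Skor2, a corepressor of Purkinje cells, stood at 0, 0, 0 and 0.1101 CPM in cerebrum and 12.4, 5.15, 12.96 and 11.4 CPM in cerebellum. Skor2 was higher in cerebellum (log2 fold change -8.32, standard error 0.67, adjusted p = 2.78e-05), above every cerebrum library. Without cerebrum WT 4 the other 3 cerebrum libraries held 0 counts of Skor2, and no fold is given. Its counts over the groups were 1111 in cerebellum against 2, a ratio of 389 with a 95% counting interval of 107 to 3220. The levels of Car8, a carbonic anhydrase related protein, were 9.68, 20.8, 19.97 and 24.4 CPM in cerebrum and 1765, 753, 1896 and 1775 CPM in cerebellum. For Car8 the cerebellum was higher (log2 fold change -6.37, standard error 0.43, adjusted p = 1.5e-05), without overlap between the tissues.

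Cerebellar interneurons and unipolar brush cells form a mixed list. Of 12 genes of these cells tested, 3 were higher in cerebrum, 7 in cerebellum and 2 were not called, with median log2 change -1.96. Slc6a5 (the glycine transporter of inhibitory neurons) was measured at 0.149, 0.355, 0.384 and 0.4404 CPM in cerebrum and 43.98, 189.7, 54.99 and 52.2 CPM in cerebellum. Slc6a5 levels in cerebellum exceeded all cerebrum values (log2 fold change -7.998, standard error 0.72, adjusted p = 5.31e-05). Slc6a5 gave -7.23 without cerebellum WT 2. Sorcs3, a sorting receptor, stood at 67.8, 59.1, 54.2 and 66.4 CPM in cerebrum and 25.5, 17.5, 23.1 and 20.01 CPM in cerebellum. For Sorcs3 the cerebrum was higher (log2 fold change 1.52, standard error 0.13, adjusted p = 4.08e-05), without overlap between the tissues. Sorcs3 went against most of its list.

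The list of genes of excitatory neurons of the cortex and hippocampus summed to 7991, 10090, 8128 and 8553 CPM in cerebrum and 1986, 1024, 1838 and 1548 CPM in cerebellum. Of 19 excitatory neuron genes tested (of 20 listed), 17 were higher in cerebrum, 1 in cerebellum and 1 was not called, with median log2 change 3.78. Excitatory neuron genes called for cerebrum and cerebellum numbered 16 and 0 without cerebrum WT 1 or cerebrum WT 3, 15 and 0 without cerebellum WT 1, cerebellum WT 3 or cerebellum WT 4 and 17 and 2 without cerebellum WT 2. The levels of Nrgn, neurogranin, a calmodulin-binding protein, were 758, 1543, 1488 and 855 CPM in cerebrum and 149.9, 5.07, 2.07 and 1.67 CPM in cerebellum. Nrgn levels in cerebrum exceeded all cerebellum values (log2 fold change 4.87, standard error 1.48, adjusted p = 0.0234). Nrgn gave 8.66 without cerebellum WT 1. Nrgn was not called without cerebrum WT 3 and cerebellum WT 2 together (4.36, adjusted p = 0.0637). Nptx1 (a neuronal pentraxin) was measured at 420.4, 453, 390.1 and 449 CPM in cerebrum and 818, 403, 945 and 737 CPM in cerebellum. Nptx1 was higher in cerebellum (log2 fold change -0.76, standard error 0.23, adjusted p = 0.0221), with overlap between the libraries of the tissues. Nptx1 lost its call without cerebrum WT 1 (-0.75, adjusted p = 0.0527), cerebrum WT 3 (-0.72, adjusted p = 0.0564), cerebellum WT 1 (-0.68, adjusted p = 0.0631), cerebellum WT 3 (-0.59, adjusted p = 0.069) or cerebellum WT 4 (-0.74, adjusted p = 0.0523). Nptx1 was called without cerebrum WT 2, cerebrum WT 4 or cerebellum WT 2 (-0.78 to -0.95, adjusted p = 0.000257 to 0.0463). Nptx1 was called without cerebrum WT 3 and cerebellum WT 2 together (-0.92, adjusted p = 0.000757). Nptx1 was the member that was called in the other direction.

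Striatal genes are to be read with and without cerebrum WT 3. Of 18 striatal genes tested (of 19 listed), 11 were higher in cerebrum, 0 in cerebellum and 7 were not called, with median log2 change 2.71. Striatal genes called for cerebrum and cerebellum numbered 9 and 2 without cerebrum WT 3. The median of striatal genes was 1.02 without cerebrum WT 3. Among striatal genes DESeq2 called 6, against 11 by edgeR. Drd1, a dopamine receptor, stood at 11.3, 10.2, 127 and 11.3 CPM in cerebrum and 1.14, 0.805, 0.527 and 0.0794 CPM in cerebellum. Drd1 levels in cerebrum exceeded all cerebellum values (log2 fold change 5.95, standard error 1.16, adjusted p = 0.00293). Drd1 gave 4.09 without cerebrum WT 3. The levels of Pdyn, prodynorphin, were 14.9, 21.7, 47.2 and 22.9 CPM in cerebrum and 2.32, 1.37, 0.0702 and 0 CPM in cerebellum. Pdyn was higher in cerebrum (log2 fold change 4.83, standard error 0.89, adjusted p = 0.00215), above every cerebellum library. Pdyn gave 5.85 without cerebellum WT 1. Penk (proenkephalin, exons overlapping another gene, value uncertain) was measured at 14.3, 31.99, 602 and 17.3 CPM in cerebrum and 84.4, 69.2, 70.3 and 94.3 CPM in cerebellum. Penk was not called (log2 fold change 1.06, standard error 1.11, adjusted p = 0.454), and the libraries of the tissues overlapped. Penk gained a call without cerebrum WT 3 (-1.91, adjusted p = 0.00129). Penk was called without cerebrum WT 3 and cerebellum WT 2 together (-1.97, adjusted p = 0.00167). The direction of Penk turned when cerebrum WT 3 was left out, and also with the replicate number as a block.

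Interneurons of the forebrain share markers with cerebellar neurons. Of 20 forebrain interneuron genes tested, 11 were higher in cerebrum, 3 in cerebellum and 6 were not called, with median log2 change 1.63. Forebrain interneuron genes called for cerebrum and cerebellum numbered 10 and 5 without cerebrum WT 3. The median of forebrain interneuron genes was 2.57 without cerebellum WT 2. Cort, cortistatin, stood at 5.56, 5.15, 4.61 and 7.49 CPM in cerebrum and 0.1901, 0.201, 0.105 and 0.0397 CPM in cerebellum. Cort was higher in cerebrum (log2 fold change 5.36, standard error 0.37, adjusted p = 1.65e-05), above every cerebellum library. The levels of Calb2, calretinin, also of granule cells, were 12.7, 4.798, 3.68 and 10.2 CPM in cerebrum and 313, 212, 405 and 229.9 CPM in cerebellum. For Calb2 the cerebellum was higher (log2 fold change -5.20, standard error 0.44, adjusted p = 3.98e-05), without overlap between the tissues. Pvalb (parvalbumin, also of Purkinje cells) was measured at 29.7, 70.2, 57.6 and 31.4 CPM in cerebrum and 361, 269, 368 and 347 CPM in cerebellum. Pvalb levels in cerebellum exceeded all cerebrum values (log2 fold change -2.83, standard error 0.29, adjusted p = 0.000107). Of 14 thalamic neuron genes tested (of 16 listed), 0 were higher in cerebrum, 5 in cerebellum and 9 were not called, with median log2 change -1.57. Each of the 5 is also a member of a cerebellar list (granule cells, Purkinje cells, interneurons or transcription factors). This count is thus not read as a result about thalamic neurons. The median of thalamic neuron genes was -0.62 without cerebellum WT 1. Prkcd, a protein kinase C of thalamic neurons and also in the cerebellar interneuron list, stood at 8.54, 8.17, 8.83 and 10.9 CPM in cerebrum and 54.9, 45.2, 59.9 and 61.5 CPM in cerebellum. For Prkcd the cerebellum was higher (log2 fold change -2.60, standard error 0.13, adjusted p = 6.79e-06), without overlap between the tissues.

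Of 7 hypothalamic neuropeptides tested (of 16 listed), 4 were higher in cerebrum, 1 in cerebellum and 2 were not called, with median log2 change 2.37. The 16 listed summed to 14.69 CPM in cerebellum WT 2, apart from 8.325 to 9.096 CPM in the other 3. The median of hypothalamic neuropeptides was 3.855 without cerebellum WT 2. The levels of Tac2, a tachykinin precursor, were 4.22, 3.32, 2.74 and 6.61 CPM in cerebrum and 0.03801, 0, 0.1405 and 0 CPM in cerebellum. Tac2 levels in cerebrum exceeded all cerebellum values (log2 fold change 6.32, standard error 0.67, adjusted p = 0.000105). Without cerebellum WT 3 the other 3 cerebellum libraries held 1 count of Tac2, and no fold is given. Of 8 monoamine neuron genes tested (of 17 listed), 2 were higher in cerebrum, 1 in cerebellum and 5 were not called, with median log2 change 0.19. Monoamine neuron genes called for cerebrum and cerebellum numbered 2 and 2 (9 tested) without cerebrum WT 3 and 2 and 2 without cerebellum WT 1. The median of monoamine neuron genes was -0.00252 (9 tested) without cerebrum WT 2, -0.13 (9 tested) without cerebrum WT 3, -0.12 (9 tested) without cerebrum WT 4, -0.16 without cerebellum WT 1 and -0.0386 without cerebellum WT 3. Of 16 brainstem and spinal cord genes listed 1 was tested, Slc6a5, which is given above among the interneuron genes. The 16 listed summed to 220.4 CPM in cerebellum WT 2, apart from 44.25 to 55.84 CPM in the other 3. Slc6a5 made up 189.7 CPM of the sum in cerebellum WT 2.

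**Figure D2:**
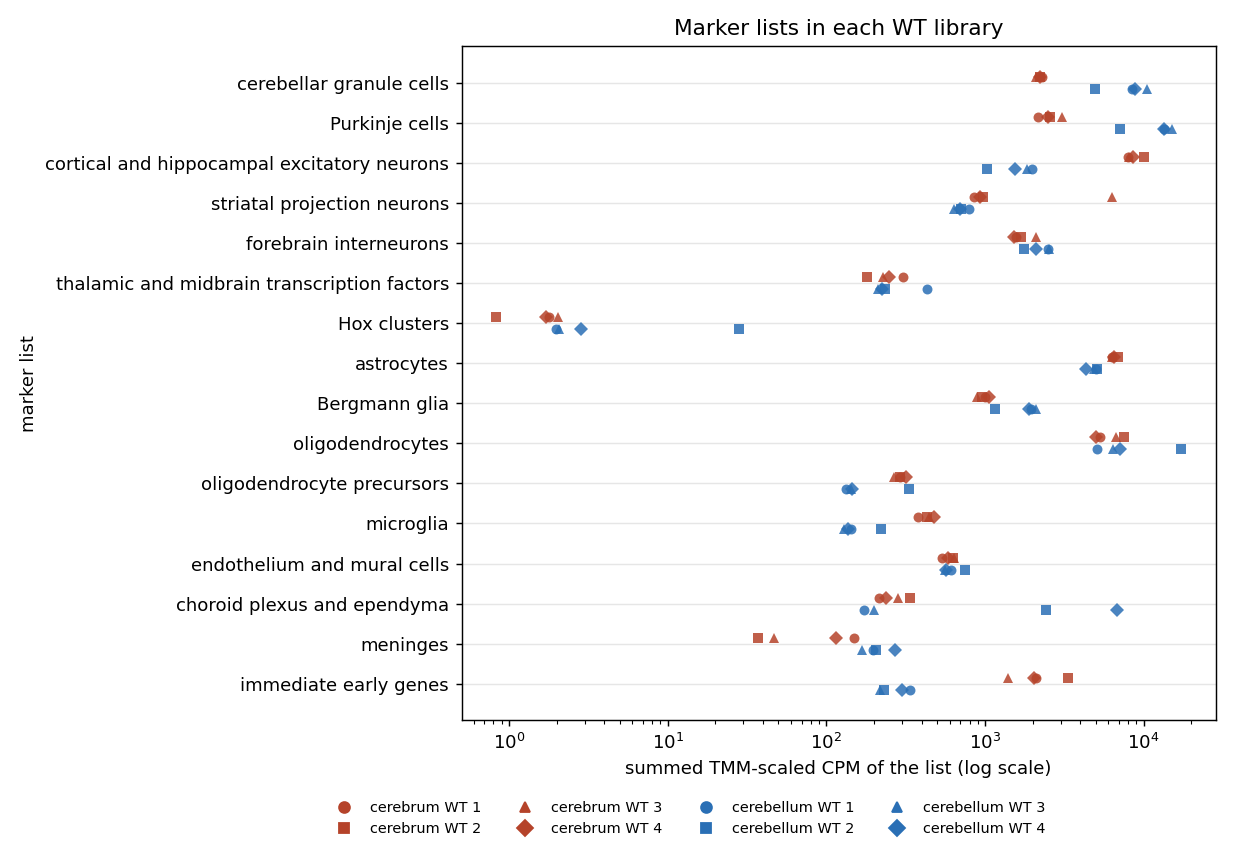
Summed CPM of 16 marker lists on a log axis, with 1 point per WT library, cerebrum in red and cerebellum in blue. Cerebrum WT 3 lies apart in the striatal list at 6351 CPM, and cerebellum WT 2 in the Hox list at 28.3 CPM.

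GABA-A receptors are the main fast inhibitory receptors. Of 15 GABA-A receptor subunits tested (of 19 listed), 7 were higher in cerebrum, 2 in cerebellum and 6 were not called, with median log2 change 0.38. Gabrg3 (a gamma subunit) was measured at 39.9, 36.2, 45.7 and 35.4 CPM in cerebrum and 8.59, 7.57, 2.25 and 1.79 CPM in cerebellum. Gabrg3 was higher in cerebrum (log2 fold change 2.96, standard error 0.48, adjusted p = 0.0011), above every cerebellum library. Gabrr2, a rho subunit, stood at 0.596, 0.474, 0.329 and 0.165 CPM in cerebrum and 1.03, 1.01, 1.09 and 1.31 CPM in cerebellum. Gabrr2 levels in cerebellum exceeded all cerebrum values (log2 fold change -1.48, standard error 0.34, adjusted p = 0.00672). Gabra6 was also in this list. Of 4 glycine receptor subunits tested (of 5 listed), 0 were higher in cerebrum, 1 in cerebellum and 3 were not called, with median log2 change 0.47. Glycine receptor subunits called for cerebrum and cerebellum numbered 1 and 1 without cerebellum WT 1. Among glycine receptor subunits DESeq2 called 2, against 1 by edgeR. The levels of Glra1, the alpha subunit of adult brainstem receptors, exons overlapping another gene, value uncertain, were 0.149, 0.237, 0.549 and 0.1101 CPM in cerebrum and 8.401, 55.99, 2.53 and 1.11 CPM in cerebellum. Glra1 was higher in cerebellum (log2 fold change -6.003, standard error 1.47, adjusted p = 0.00873), above every cerebrum library. Glra1 gave -6.65 without cerebrum WT 3 and -3.91 without cerebellum WT 2.

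Glutamate receptors carry fast and slow excitation. Of 18 ionotropic glutamate receptor subunits tested, 8 were higher in cerebrum, 6 in cerebellum and 4 were not called, with median log2 change 0.46. Of 7 metabotropic glutamate receptors tested (of 8 listed), 5 were higher in cerebrum, 2 in cerebellum and 0 were not called, with median log2 change 1.08. Grin2a (an NMDA receptor subunit) was measured at 320.3, 308, 317 and 331 CPM in cerebrum and 143, 94.1, 124 and 108 CPM in cerebellum. For Grin2a the cerebrum was higher (log2 fold change 1.45, standard error 0.13, adjusted p = 4.37e-05), without overlap between the tissues. Gria1, an AMPA receptor subunit, stood at 562, 335, 344 and 597 CPM in cerebrum and 621, 319, 618 and 484 CPM in cerebellum. Gria1 was not called (log2 fold change -0.15, standard error 0.27, adjusted p = 0.663), and the libraries of the tissues overlapped. The levels of Grm5, a group I metabotropic receptor, were 322, 164, 284 and 295 CPM in cerebrum and 63.2, 52.6, 13.2 and 10.9 CPM in cerebellum. For Grm5 the cerebrum was higher (log2 fold change 2.93, standard error 0.59, adjusted p = 0.00337), without overlap between the tissues. Grm4 (a presynaptic receptor of granule cells) was measured at 33.3, 29.3, 50.1 and 20.2 CPM in cerebrum and 385, 240, 505 and 491 CPM in cerebellum. Grm4 levels in cerebellum exceeded all cerebrum values (log2 fold change -3.61, standard error 0.34, adjusted p = 6.18e-05).

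Of 23 dopamine, serotonin and noradrenaline receptors tested (of 28 listed), 16 were higher in cerebrum, 1 in cerebellum and 6 were not called, with median log2 change 1.71. Dopamine, serotonin and noradrenaline receptors called for cerebrum and cerebellum numbered 13 and 1 without cerebrum WT 1 or cerebrum WT 4, 15 and 0 without cerebrum WT 2, 15 and 2 (24 tested) without cerebrum WT 3, 15 and 0 (24 tested) without cerebellum WT 1 or cerebellum WT 3 and 14 and 0 (24 tested) without cerebellum WT 4. The 28 listed summed to 569.5 CPM in cerebrum WT 3, apart from 283.7 to 306 CPM in the other 3. The median of dopamine, serotonin and noradrenaline receptors was 2.47 (24 tested) without cerebellum WT 2. Htr3a, a serotonin-gated channel, stood at 6.601, 3.44, 2.08 and 5.61 CPM in cerebrum and 0.152, 0.523, 0.0702 and 0.0397 CPM in cerebellum. For Htr3a the cerebrum was higher (log2 fold change 4.49, standard error 0.67, adjusted p = 0.000677), without overlap between the tissues. Htr3a gave 5.59 without cerebellum WT 2. The levels of Adrb1, a beta adrenergic receptor, were 22.9, 35.01, 21.8 and 24.9 CPM in cerebrum and 2.51, 2.82, 2.11 and 3.06 CPM in cerebellum. Adrb1 levels in cerebrum exceeded all cerebellum values (log2 fold change 3.32, standard error 0.19, adjusted p = 9.93e-06).

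Acetylcholine receptors are muscarinic or nicotinic. Of 15 acetylcholine receptors tested (of 18 listed), 7 were higher in cerebrum, 3 in cerebellum and 5 were not called, with median log2 change 0.72. Chrm1 (a muscarinic receptor, exons overlapping another gene, value uncertain) was measured at 203, 187, 192 and 199 CPM in cerebrum and 2.66, 2.29, 0.597 and 0.397 CPM in cerebellum. Chrm1 was higher in cerebrum (log2 fold change 7.04, standard error 0.50, adjusted p = 1.91e-05), above every cerebellum library. Chrnb4, a nicotinic subunit, stood at 0.397, 0.355, 0.165 and 0.4404 CPM in cerebrum and 3.57, 1.85, 2.04 and 1.67 CPM in cerebellum. Chrnb4 levels in cerebellum exceeded all cerebrum values (log2 fold change -2.73, standard error 0.37, adjusted p = 0.000429). Of 9 opioid, cannabinoid and adenosine receptors tested (of 10 listed), 4 were higher in cerebrum, 1 in cerebellum and 4 were not called, with median log2 change 0.58. These receptors were called at 55.6%, beside 49.8% of all genes, so this count is not read as a difference. Opioid, cannabinoid and adenosine receptors called for cerebrum and cerebellum numbered 3 and 0 (10 tested) without cerebrum WT 1 or cerebrum WT 4, 2 and 0 (10 tested) without cerebrum WT 2, 1 and 1 (10 tested) without cerebrum WT 3 and 1 and 0 without cerebellum WT 1, cerebellum WT 3 or cerebellum WT 4. The 10 listed summed to 961.5 CPM in cerebrum WT 3, apart from 532.3 to 587.3 CPM in the other 3. The levels of Adora2a, an adenosine receptor of striatopallidal neurons, were 1.89, 2.19, 149 and 1.49 CPM in cerebrum and 1.29, 2.21, 1.299 and 1.75 CPM in cerebellum. Adora2a was higher in cerebrum (log2 fold change 4.56, standard error 1.60, adjusted p = 0.0417), with overlap between the libraries of the tissues. Adora2a lost its call without cerebrum WT 3 (0.18, adjusted p = 0.618), cerebellum WT 1 (4.49, adjusted p = 0.0913), cerebellum WT 2 (4.76, adjusted p = 0.0718), cerebellum WT 3 (4.49, adjusted p = 0.0932) or cerebellum WT 4 (4.62, adjusted p = 0.088). Adora2a was called without cerebrum WT 1, cerebrum WT 2 or cerebrum WT 4 (4.96 to 4.97, adjusted p = 0.0293 to 0.0325). Adora2a was not called without cerebrum WT 3 and cerebellum WT 2 together (0.36, adjusted p = 0.263).

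Neuropeptide receptors are given beside all genes, of which 24.2% were higher in cerebrum and 25.6% in cerebellum. The difference from all genes was not tested. Of 23 neuropeptide receptors tested (of 32 listed), 13 were higher in cerebrum, 3 in cerebellum and 7 were not called, with median log2 change 2.16. Npy2r (a neuropeptide Y receptor) was measured at 10.2, 2.96, 2.85 and 10.3 CPM in cerebrum and 0.03801, 0.564, 0.1405 and 0.0794 CPM in cerebellum. For Npy2r the cerebrum was higher (log2 fold change 4.99, standard error 0.78, adjusted p = 0.000887), without overlap between the tissues. Npy2r gave 6.16 without cerebellum WT 2. Ntsr1, a neurotensin receptor, stood at 15.9, 5.45, 5.597 and 8.86 CPM in cerebrum and 0.03801, 1.49, 0 and 0.0397 CPM in cerebellum. Ntsr1 was higher in cerebrum (log2 fold change 4.54, standard error 1.05, adjusted p = 0.00667), above every cerebellum library. Without cerebellum WT 2 the other 3 cerebellum libraries held 2 counts of Ntsr1, and no fold is given. The levels of Vipr2, a receptor for vasoactive intestinal peptide, were 0.893, 0.296, 0.274 and 1.101 CPM in cerebrum and 6.196, 5.43, 6.88 and 12.3 CPM in cerebellum. For Vipr2 the cerebellum was higher (log2 fold change -3.56, standard error 0.47, adjusted p = 0.000367), without overlap between the tissues.

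Voltage-gated potassium channels repolarise neurons. Of 44 voltage-gated potassium channel subunits tested (of 47 listed), 25 were higher in cerebrum, 9 in cerebellum and 10 were not called, with median log2 change 1.11. Of 33 other potassium channels tested (of 41 listed), 11 were higher in cerebrum, 8 in cerebellum and 14 were not called, with median log2 change 0.18. Other potassium channels were called at 57.6%, beside 49.8% of all genes, so this count is not read as a difference. Kcnv1 (a modifier subunit) was measured at 73.9, 126, 132 and 99.96 CPM in cerebrum and 0.722, 0.443, 0.176 and 0 CPM in cerebellum. Kcnv1 levels in cerebrum exceeded all cerebellum values (log2 fold change 8.31, standard error 0.50, adjusted p = 1.07e-05). Kcnv1 gave 9.03 without cerebellum WT 1. Kcng4, a further modifier subunit, stood at 4.72, 16.2, 15.7 and 5.94 CPM in cerebrum and 164, 164, 165 and 190.2 CPM in cerebellum. For Kcng4 the cerebellum was higher (log2 fold change -4.01, standard error 0.40, adjusted p = 8.88e-05), without overlap between the tissues. The levels of Kcnj4, an inward rectifier, were 78.4, 83.5, 128 and 81.9 CPM in cerebrum and 2.85, 0.765, 0.351 and 0.397 CPM in cerebellum. Kcnj4 levels in cerebrum exceeded all cerebellum values (log2 fold change 6.41, standard error 0.57, adjusted p = 5.13e-05). Kcnj4 gave 7.55 without cerebellum WT 1. Kcnj12 (another inward rectifier) was measured at 11.2, 11.2, 11.9 and 10.1 CPM in cerebrum and 62.99, 38.7, 79.7 and 66.5 CPM in cerebellum. Kcnj12 was higher in cerebellum (log2 fold change -2.48, standard error 0.20, adjusted p = 3.56e-05), above every cerebrum library.

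Sodium and calcium channels set excitability and release. Of 10 voltage-gated sodium channels tested (of 13 listed), 3 were higher in cerebrum, 0 in cerebellum and 7 were not called, with median log2 change 0.09. Voltage-gated sodium channels called for cerebrum and cerebellum numbered 3 and 1 without cerebellum WT 2. The median of voltage-gated sodium channels was -0.0128 without cerebrum WT 3. Of 24 voltage-gated calcium channels tested (of 26 listed), 9 were higher in cerebrum, 6 in cerebellum and 9 were not called, with median log2 change 0.21. The 26 listed summed to 3263 CPM in cerebrum WT 3, apart from 2901 to 2962 CPM in the other 3. Scn3b, a beta subunit, stood at 171, 72.2, 93.8 and 176 CPM in cerebrum and 9.39, 19.9, 4.46 and 3.49 CPM in cerebellum. Scn3b levels in cerebrum exceeded all cerebellum values (log2 fold change 3.78, standard error 0.58, adjusted p = 0.000841). Scn3b gave 4.48 without cerebellum WT 2. The levels of Cacng3, an auxiliary subunit of AMPA receptors, were 122.8, 130.3, 130.2 and 113 CPM in cerebrum and 14.1, 6.64, 7.16 and 6.23 CPM in cerebellum. Cacng3 was higher in cerebrum (log2 fold change 3.86, standard error 0.26, adjusted p = 1.63e-05), above every cerebellum library. Cacna1g (a T-type channel) was measured at 88.4, 103, 80.8 and 108 CPM in cerebrum and 359.8, 176, 427 and 373 CPM in cerebellum. For Cacna1g the cerebellum was higher (log2 fold change -1.82, standard error 0.25, adjusted p = 0.00048), without overlap between the tissues.

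Of 19 HCN and TRP channels tested (of 25 listed), 7 were higher in cerebrum, 5 in cerebellum and 7 were not called, with median log2 change 0.14. The median of HCN and TRP channels was -0.11 (22 tested) without cerebrum WT 1, -0.31 (21 tested) without cerebrum WT 2, -0.17 (21 tested) without cerebrum WT 3 and -0.0423 (22 tested) without cerebrum WT 4. Trpc4, a canonical TRP channel, stood at 28.9, 14.3, 9.93 and 24.7 CPM in cerebrum and 3.04, 1.85, 1.79 and 1.51 CPM in cerebellum. Trpc4 was higher in cerebrum (log2 fold change 3.25, standard error 0.38, adjusted p = 0.000201), above every cerebellum library.

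**Figure D3:**
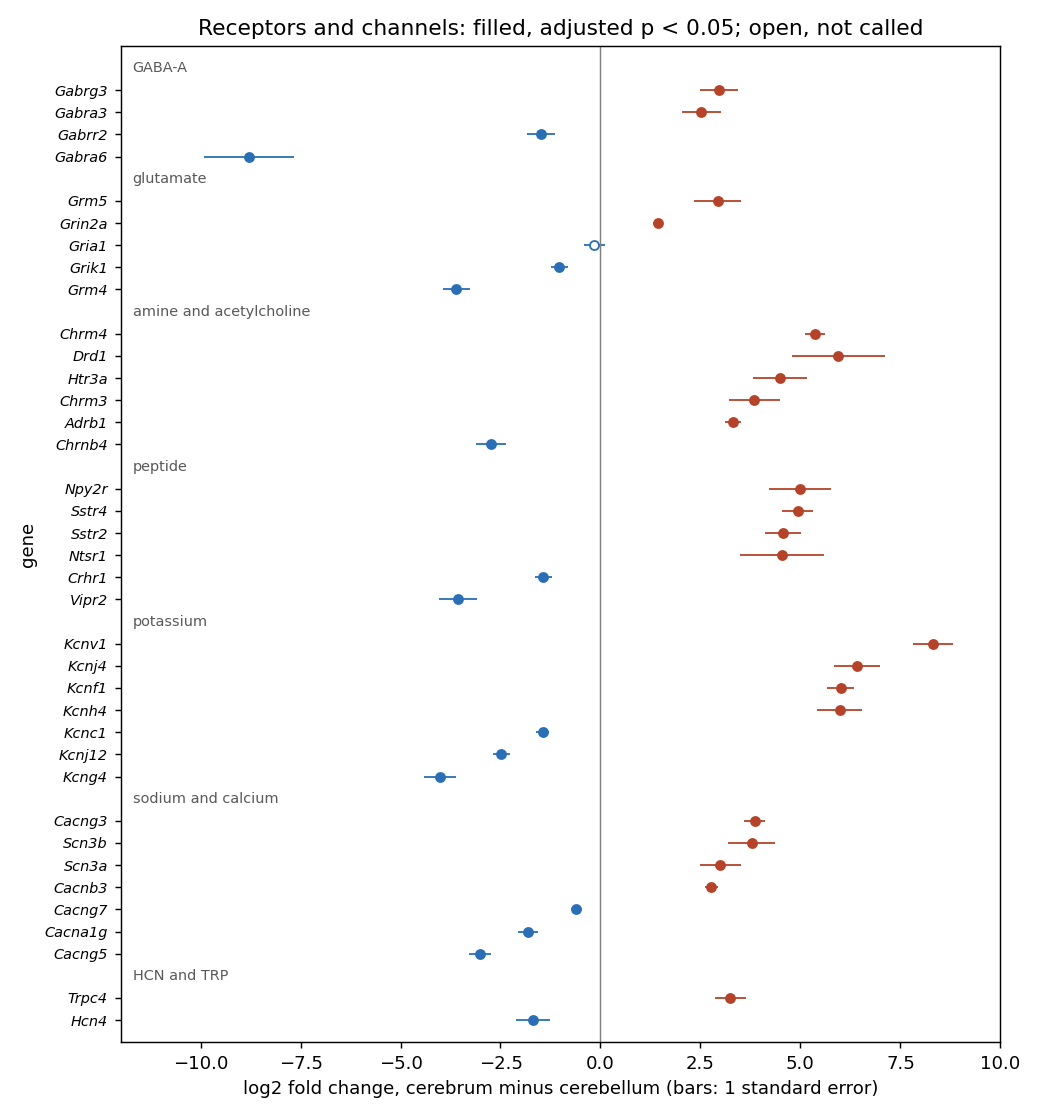
Log2 fold change, cerebrum minus cerebellum, of receptor and channel genes, with bars of 1 standard error. Filled points were called and open points were not, and Gabra6 lies lowest at -8.78.

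Transporters and secreted synapse organisers are given beside all genes, of which 24.2% were higher in cerebrum and 25.6% in cerebellum. Of 15 transmitter transporters tested (of 20 listed), 4 were higher in cerebrum, 5 in cerebellum and 6 were not called, with median log2 change -0.29. Transmitter transporters were called at 60%, beside 49.8% of all genes, so this count is not read as a difference. Of 10 cerebellins, C1q-like proteins and pentraxins tested (of 11 listed), 5 were higher in cerebrum, 3 in cerebellum and 2 were not called, with median log2 change 1.78. Cerebellins, C1q-like proteins and pentraxins called for cerebrum and cerebellum numbered 3 and 2 without cerebrum WT 1, cerebellum WT 3 or cerebellum WT 4 and 3 and 3 without cerebrum WT 4. The levels of Slc1a6, the glutamate transporter of Purkinje cells, were 7.098, 5.92, 5.103 and 8.64 CPM in cerebrum and 111, 52.2, 155 and 122.5 CPM in cerebellum. For Slc1a6 the cerebellum was higher (log2 fold change -4.04, standard error 0.34, adjusted p = 4e-05), without overlap between the tissues. Cbln1 (the cerebellin of granule cell synapses) was measured at 25.5, 2.67, 4.44 and 13.9 CPM in cerebrum and 560.2, 349.6, 706 and 591 CPM in cerebellum. Cbln1 levels in cerebellum exceeded all cerebrum values (log2 fold change -5.56, standard error 0.70, adjusted p = 0.000293). Cbln1 gave -6.29 without cerebrum WT 1. Nptx2, an activity-regulated pentraxin, stood at 45.2, 80.97, 55.03 and 59.01 CPM in cerebrum and 2.97, 3.02, 0.702 and 0.715 CPM in cerebellum. For Nptx2 the cerebrum was higher (log2 fold change 5.02, standard error 0.49, adjusted p = 8.13e-05), without overlap between the tissues. Of 26 synaptic adhesion molecules tested, 16 were higher in cerebrum, 1 in cerebellum and 9 were not called, with median log2 change 0.59. Synaptic adhesion molecules called for cerebrum and cerebellum numbered 16 and 3 without cerebellum WT 2.

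Calcium signalling genes were divided between the tissues. Of 35 calcium signalling proteins tested, 13 were higher in cerebrum, 12 in cerebellum and 10 were not called, with median log2 change 0.31. The levels of Camk2a, a calcium-dependent kinase of excitatory synapses, were 3188, 4277, 3216 and 3777 CPM in cerebrum and 265, 65.5, 103 and 92.7 CPM in cerebellum. Camk2a levels in cerebrum exceeded all cerebellum values (log2 fold change 4.78, standard error 0.46, adjusted p = 7.21e-05). Camk2a gave 5.40 without cerebellum WT 1. Calb1 (calbindin, a buffer of Purkinje cells) was measured at 109.7, 111, 153 and 159 CPM in cerebrum and 961, 435, 1072 and 966 CPM in cerebellum. Calb1 was higher in cerebellum (log2 fold change -2.69, standard error 0.29, adjusted p = 0.000123), above every cerebrum library. Of 21 Eph receptors and ephrins tested (of 22 listed), 11 were higher in cerebrum, 3 in cerebellum and 7 were not called, with median log2 change 0.95. Epha4, an ephrin receptor, stood at 288, 229, 245 and 239.5 CPM in cerebrum and 30.5, 51.5, 43.9 and 30.3 CPM in cerebellum. Epha4 levels in cerebrum exceeded all cerebellum values (log2 fold change 2.68, standard error 0.19, adjusted p = 1.86e-05).

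Of 43 cyclic nucleotide and RGS genes tested (of 47 listed), 23 were higher in cerebrum, 7 in cerebellum and 13 were not called, with median log2 change 0.65. The levels of Rgs14, an RGS protein of hippocampal neurons, were 45.6, 26.8, 40.3 and 52.4 CPM in cerebrum and 0.9504, 0.403, 0.316 and 0.318 CPM in cerebellum. Rgs14 was higher in cerebrum (log2 fold change 6.36, standard error 0.37, adjusted p = 1.03e-05), above every cerebellum library. Pde1a (a calcium-dependent phosphodiesterase) was measured at 261, 197, 137 and 244 CPM in cerebrum and 6.23, 8.17, 3.02 and 1.39 CPM in cerebellum. For Pde1a the cerebrum was higher (log2 fold change 5.48, standard error 0.52, adjusted p = 6.59e-05), without overlap between the tissues. Pde1c, its relative, stood at 11.3, 7.17, 13 and 11.2 CPM in cerebrum and 140.5, 86.1, 173 and 155 CPM in cerebellum. Pde1c was higher in cerebellum (log2 fold change -3.70, standard error 0.26, adjusted p = 1.82e-05), above every cerebrum library.

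Glial lists differed in direction. The mean log2 (CPM + 1) of the 12 astrocyte genes was 7.09, 7.02, 6.92 and 7.12 in cerebrum and 7.60, 7.89, 7.58 and 7.61 in cerebellum. The summed CPM was higher in cerebrum, 6287, 6913, 6279 and 6527 CPM in cerebrum and 4991, 5081, 4876 and 4336 CPM in cerebellum. Slc1a2, a glutamate transporter named after its values were seen, made up most of the cerebrum sum, at 4511, 5212, 4640.1 and 4668 CPM in cerebrum and 1528, 1823, 1171 and 938 CPM in cerebellum. Of 12 astrocyte genes tested, 1 was higher in cerebrum, 6 in cerebellum and 5 were not called, with median log2 change -0.32. Astrocyte genes were called at 58.3%, beside 49.8% of all genes (25.6% higher in cerebellum). The difference from all genes was not tested. Astrocyte genes called for cerebrum and cerebellum numbered 2 and 6 without cerebellum WT 2. Of 8 Bergmann glia genes tested, 1 was higher in cerebrum, 6 in cerebellum and 1 was not called, with median log2 change -1.29. Bergmann glia genes called for cerebrum and cerebellum numbered 2 and 6 without cerebellum WT 2. The levels of Aqp4, the water channel of astrocyte endfeet, were 137, 120.2, 135 and 146 CPM in cerebrum and 437, 535, 486 and 445 CPM in cerebellum. For Aqp4 the cerebellum was higher (log2 fold change -1.82, standard error 0.10, adjusted p = 7.34e-06), without overlap between the tissues. Gdf10 (a growth factor of Bergmann glia) was measured at 7.05, 4.38, 6.2 and 8.48 CPM in cerebrum and 132, 67.3, 122.6 and 147 CPM in cerebellum. Gdf10 levels in cerebellum exceeded all cerebrum values (log2 fold change -4.16, standard error 0.29, adjusted p = 1.81e-05). Etv5, an ETS factor, stood at 169.8, 189, 166 and 154 CPM in cerebrum and 95.7, 72.9, 107 and 93.6 CPM in cerebellum. For Etv5 the cerebrum was higher (log2 fold change 0.88, standard error 0.12, adjusted p = 0.000477), without overlap between the tissues. Etv5 was the Bergmann member higher in cerebrum.

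Microglia are the resident macrophages of the brain, and their 11 genes summed to 379.9, 433.4, 445.5 and 474.2 CPM in cerebrum and 143.7, 221.1, 129 and 136.3 CPM in cerebellum. Of 11 microglia genes tested, 11 were higher in cerebrum, 0 in cerebellum and 0 were not called, with median log2 change 1.63. The 11 listed summed to 221.1 CPM in cerebellum WT 2, apart from 129 to 143.7 CPM in the other 3. The levels of Tmem119, a membrane protein of microglia, were 15.8, 17.8, 20.1 and 22.5 CPM in cerebrum and 4.83, 7.16, 4.71 and 4.37 CPM in cerebellum. Tmem119 levels in cerebrum exceeded all cerebellum values (log2 fold change 1.86, standard error 0.18, adjusted p = 8.21e-05). Of 12 oligodendrocyte genes tested, 0 were higher in cerebrum, 0 in cerebellum and 12 were not called, with median log2 change -0.51. Oligodendrocyte genes called for cerebrum and cerebellum numbered 0 and 2 without cerebellum WT 1 and 3 and 0 without cerebellum WT 2. By edgeR 1 of the 12 oligodendrocyte genes had an unadjusted p under 0.05, and DESeq2 called 1. Of 7 oligodendrocyte precursor genes tested, 3 were higher in cerebrum, 0 in cerebellum and 4 were not called, with median log2 change 0.45. Oligodendrocyte precursor genes called for cerebrum and cerebellum numbered 6 and 0 without cerebellum WT 2. The 7 listed summed to 331 CPM in cerebellum WT 2, apart from 132.3 to 146.2 CPM in the other 3. Both lists were highest in cerebellum WT 2 among the cerebella.

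The vessel and blood lists gave no calls. Of 12 vessel genes tested, 0 were higher in cerebrum, 0 in cerebellum and 12 were not called, with median log2 change -0.05. The median of vessel genes was 0.0648 without cerebellum WT 2. Of 5 blood genes tested, 0 were higher in cerebrum, 0 in cerebellum and 5 were not called, with median log2 change 0.01. The median of blood genes was -0.0418 without cerebrum WT 1, -0.0958 without cerebrum WT 2, -0.028 without cerebrum WT 4, -0.205 without cerebellum WT 3 and -0.0693 without cerebellum WT 4. For the vessel and blood lists edgeR gave 0 genes with an unadjusted p under 0.05 and DESeq2 called 0. With upper-quartile factors the blood median was on the cerebellum side. Of 8 meningeal genes tested, 0 were higher in cerebrum, 4 in cerebellum and 4 were not called, with median log2 change -1.13. Meningeal genes were called at 50%, all for cerebellum, beside 25.6% of all genes higher in cerebellum and 49.8% called in either direction. The list holds 8 genes and was not tested against all genes, so this count is not read as a difference. Of 3 pituitary and pineal genes tested (of 10 listed), 0 were higher in cerebrum, 1 in cerebellum and 2 were not called, with median log2 change -1.21. Pituitary and pineal genes called for cerebrum and cerebellum numbered 0 and 2 without cerebrum WT 4. The 10 listed summed to 17.43 CPM in cerebellum WT 2, apart from 8.376 to 8.815 CPM in the other 3. The median of pituitary and pineal genes was -1.79 without cerebrum WT 4. Col1a2 (a collagen chain) was measured at 14, 4.26, 6.91 and 10.7 CPM in cerebrum and 24.98, 31.2, 28.2 and 27.3 CPM in cerebellum. Col1a2 was higher in cerebellum (log2 fold change -1.63, standard error 0.31, adjusted p = 0.00255), above every cerebrum library. Of 8 choroid plexus genes tested (of 12 listed), 0 were higher in cerebrum, 3 in cerebellum and 5 were not called, with median log2 change -2.63. Choroid plexus genes called for cerebrum and cerebellum numbered 0 and 8 (12 tested) without cerebellum WT 1 and 0 and 9 (12 tested) without cerebellum WT 3. The median of choroid plexus genes was -3.59 (12 tested) without cerebrum WT 1, -3.46 (12 tested) without cerebrum WT 3, -3.67 (12 tested) without cerebrum WT 4, -3.99 (12 tested) without cerebellum WT 1, -4 (12 tested) without cerebellum WT 3 and -1.335 without cerebellum WT 4. Among choroid plexus genes DESeq2 called 6, against 3 by edgeR. Ttr, transthyretin, the main choroid plexus secretion, stood at 2.98, 35.8, 9.05 and 10.1 CPM in cerebrum and 0.418, 1108, 2.84 and 3976 CPM in cerebellum. Ttr was higher in cerebellum (log2 fold change -6.46, standard error 2.31, adjusted p = 0.0442), with overlap between the libraries of the tissues. Ttr lost its call without cerebrum WT 1 (-6.12, adjusted p = 0.1003), cerebrum WT 2 (-7.43, adjusted p = 0.0675), cerebrum WT 3 (-6.29, adjusted p = 0.0985), cerebrum WT 4 (-6.32, adjusted p = 0.102), cerebellum WT 2 (-6.50, adjusted p = 0.0571) or cerebellum WT 4 (-4.65, adjusted p = 0.105). Ttr was called without cerebellum WT 1 or cerebellum WT 3 (-6.85, adjusted p = 0.0187 to 0.0263). Ttr was not called without cerebrum WT 3 and cerebellum WT 2 together (-6.35, adjusted p = 0.112). The high values of Ttr were in cerebellum WT 2 and WT 4, and its lowest cerebellum value lay under every cerebrum value.

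Immediate early genes are switched on within minutes of neuronal activity. The 15 listed summed to 2085, 3360, 1405 and 2032 CPM in cerebrum and 338.2, 229.8, 219.4 and 301.9 CPM in cerebellum. Of 15 immediate early genes tested, 11 were higher in cerebrum, 0 in cerebellum and 4 were not called, with median log2 change 2.77. The levels of Egr2, a zinc finger factor, were 26.4, 30.98, 9.22 and 37.3 CPM in cerebrum and 0.494, 0.0805, 0.0702 and 0.0794 CPM in cerebellum. Egr2 was higher in cerebrum (log2 fold change 7.12, standard error 0.67, adjusted p = 6.15e-05), above every cerebellum library. Egr2 gave 8.32 without cerebellum WT 1. Egr3 (another zinc finger factor) was measured at 293, 491, 310 and 279 CPM in cerebrum and 9.16, 1.61, 0.702 and 0.834 CPM in cerebellum. For Egr3 the cerebrum was higher (log2 fold change 6.80, standard error 0.84, adjusted p = 0.000259), without overlap between the tissues. Egr3 gave 8.38 without cerebellum WT 1. Arc, a synaptic protein, stood at 379.9, 1018, 297 and 368 CPM in cerebrum and 27.9, 32.2, 21.7 and 18.5 CPM in cerebellum. Arc was higher in cerebrum (log2 fold change 4.36, standard error 0.44, adjusted p = 9.53e-05), above every cerebellum library. The levels of Fosb, an AP-1 subunit, were 55.04, 36.96, 16.4 and 58.2 CPM in cerebrum and 3.23, 1.77, 0.843 and 1.39 CPM in cerebellum. For Fosb the cerebrum was higher (log2 fold change 4.53, standard error 0.52, adjusted p = 0.000171), without overlap between the tissues.

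The short motif TGACG is the core bound by the CREB family of activity-dependent factors, and was sought on either strand (CGTCA) in the 250 bases upstream of the annotated start. Of the immediate early genes 11 could be matched to a promoter, and 10 of them held TGACG, against 19.8% of 27025 genes and 28.5% of the 11690 among those that were tested. The granule cell list had 2 of 16. The full site TGACGTCA was in 2 of the 11 (1.77% of all, 2.86% of tested genes), and CAGATG was in 0 of the 11 (16.3% of all, 12.5% of tested genes). Bases come from RefSeq GRCm38.p6, with the motif in capitals and the other bases in lower case, and a match is a description of the sequence alone.
Fosb chr7:19310089-19310117 - strand: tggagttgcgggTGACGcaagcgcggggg
Npas4 chr19:4990124-4990162 - strand: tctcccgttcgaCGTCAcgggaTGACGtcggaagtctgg

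Npas4 (an activity-dependent bHLH factor) was measured at 35.6, 34.3, 8.56 and 47.7 CPM in cerebrum and 5.06, 4.31, 2.91 and 6.23 CPM in cerebellum. Npas4 levels in cerebrum exceeded all cerebellum values (log2 fold change 2.77, standard error 0.48, adjusted p = 0.00161).

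Of 12 reference genes tested, 6 were higher in cerebrum, 1 in cerebellum and 5 were not called, with median log2 change 0.30. None of the 12 had a log2 fold change over 1. Of 12 pan-neuronal genes tested, 5 were higher in cerebrum, 1 in cerebellum and 6 were not called, with median log2 change 0.26. The pan-neuronal list was called at 50%, near the 49.8% of all genes. By direction, 24.2% of all genes were higher in cerebrum and 25.6% in cerebellum. The list was not tested against these shares, so its count is not read as a difference. Actb, beta actin, stood at 874, 886, 936 and 826 CPM in cerebrum and 535, 556, 501 and 484 CPM in cerebellum. For Actb the cerebrum was higher (log2 fold change 0.76, standard error 0.08, adjusted p = 0.000142), without overlap between the tissues. The levels of Syt1, the calcium sensor of vesicles, were 2126, 1828, 1732 and 1696 CPM in cerebrum and 581, 359.9, 543 and 490.1 CPM in cerebellum. Syt1 levels in cerebrum exceeded all cerebellum values (log2 fold change 1.90, standard error 0.16, adjusted p = 4.01e-05).

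Mitochondrial transcripts were the most abundant per kilobase of exon. mt-Co1 (exons overlapping another gene, value uncertain) led both tissues at 14492 CPM per kb in cerebrum and 11235 CPM per kb in cerebellum. mt-Co1 (a subunit of cytochrome oxidase) was measured at 20767, 24286, 23679 and 20829 CPM in cerebrum and 21008, 19023, 14447 and 14954 CPM in cerebellum. mt-Co1 was not called (log2 fold change 0.37, standard error 0.16, adjusted p = 0.091), and the libraries of the tissues overlapped. mt-Co1 gained a call without cerebellum WT 1 (0.50, adjusted p = 0.0364). mt-Co1 was not called without cerebrum WT 3 and cerebellum WT 2 together (0.39, adjusted p = 0.144).

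Among the genes with the widest differences outside the lists were these. Crym, a thyroid hormone binding protein, stood at 76.6, 20.02, 15.8 and 97.8 CPM in cerebrum and 0.114, 0.0805, 0.0351 and 0.0794 CPM in cerebellum. Crym levels in cerebrum exceeded all cerebellum values (log2 fold change 9.32, standard error 0.95, adjusted p = 9.13e-05). The levels of Ddn, dendrin, a dendritic protein, exons overlapping another gene, value uncertain, were 1335, 1017, 1055 and 1537 CPM in cerebrum and 8.25, 2.25, 0.492 and 0.238 CPM in cerebellum. Ddn was higher in cerebrum (log2 fold change 8.78, standard error 1.01, adjusted p = 0.000178), above every cerebellum library. Ddn gave 10.32 without cerebellum WT 1. Cnpy1 (a canopy protein of the midbrain-hindbrain region) was measured at 0, 0.0592, 0.165 and 1.596 CPM in cerebrum and 243, 140.4, 289.7 and 351 CPM in cerebellum. For Cnpy1 the cerebellum was higher (log2 fold change -9.13, standard error 0.76, adjusted p = 3.79e-05), without overlap between the tissues. Cnpy1 gave -11.68 without cerebrum WT 4, with 4 counts left in cerebrum, so that size is uncertain. Iltifb, a cytokine gene, stood at 0.0496, 0, 0 and 0.05504 CPM in cerebrum and 16.3, 7.61, 20.02 and 17.8 CPM in cerebellum. Iltifb was higher in cerebellum (log2 fold change -8.88, standard error 0.58, adjusted p = 1.26e-05), above every cerebrum library. Its counts over the groups were 1637 in cerebellum against 2, a ratio of 573 with a 95% counting interval of 158 to 4740.

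The Tol libraries, 4 cerebra and 2 cerebella, give the same contrast in other mice. The deposited columns named MRT were taken as the Tol libraries, by tissue and number, and all Tol values rest on that. Of 16467 genes tested, 2564 were called, 1346 higher in cerebrum and 1218 higher in cerebellum. Of the 2933 WT genes over a log2 fold change of 1, 2870 were tested in Tol, 2813 had the same sign and 1330 were called. Leaving out cerebrum Tol 1, Tol 2, Tol 3 or Tol 4 gave 753, 1003, 840 or 1208 genes. Leaving out a Tol cerebellum leaves 1 library in that group, with the variance taken from the cerebra, so the counts then (3936 without Tol 1, 6639 without Tol 2) do not test the call number. With the replicate number as a block, 0 genes were called by edgeR in Tol, where the DESeq2 fit without a block called 3736. Whether the tissue difference depends on genotype was tested as an interaction. By edgeR 0 of 17130 genes were called, 1043 had an unadjusted p under 0.05, and DESeq2 called 7 with 1098 under that limit. Without cerebellum Tol 1 edgeR called 1503, with a single Tol cerebellum left and its variance taken from the other groups, and 0 without cerebellum Tol 2 (989 with an unadjusted p under 0.05).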

How the data were processed

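The authors deposited estimated counts per gene (expected counts, whole numbers) for each tissue, quantified by Salmon 0.14.1 against mouse transcripts of GRCm38 plus the transgene, and tested with edgeR 3.9, per their processing notes. How transcripts were summed to genes is not stated. The tables for cerebrum and cerebellum were joined by Ensembl id, and symbols and exon lengths come from GENCODE vM21. WT library totals ran from 18049095 to 27057347 counts, and the fitted variation between replicates was 21.5%.

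The WT libraries, 4 of each tissue, were compared with the edgeR 4.0.16 quasi-likelihood F test in R 4.3.3 (TMM scaling, filterByExpr, Benjamini-Hochberg over all genes tested, adjusted p under 0.05). DESeq2 1.42.0, other scalings and filters, a replicate block and leaving out each library were the alternatives. The gene lists, tests and alternatives were fixed before the data were examined here. Even so, members and lists were chosen with earlier results of these data known. An alternative without cerebrum WT 3 and cerebellum WT 2 together was chosen after the data were seen. The report names a selection of 184 genes examined for it, chosen after values were seen, and the counts in the closing section cover all 184. A few further genes examined were left out of the text and of those counts. Thymus libraries were left out.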

Additional observations from a re-analysis of the deposited data

Results flagged for a closer look

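A library was listed where its level of an examined gene stood outside the other 3 of its group by Dixon's test, in groups with at least 10 counts. Of 350 groups tested 46 were listed, where chance lists about 1 in 20 groups. The genes were chosen after values were seen, so the number listed is no test against that rate. The groups cover 184 genes examined, those that the report does not name included. 

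In cerebrum WT 2 the levels were Mef2c 863 CPM (above 678 to 706 CPM), Egr3 491 CPM (above 279 to 310 CPM) and Arc 1018 CPM (above 297 to 379.9 CPM), beside the range of the other 3 libraries of the group.

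In cerebrum WT 3 the levels were Rxrg 65.9 CPM (above 1.12 to 4.51 CPM), Slc17a7 996 CPM (below 1214 to 1226 CPM), Drd1 127 CPM (above 10.2 to 11.3 CPM), Gpr6 28.1 CPM (above 0.77 to 2.08 CPM), Penk 602 CPM (above 14.3 to 31.99 CPM), Adora2a 149 CPM (above 1.49 to 2.19 CPM), Sstr2 35.3 CPM (above 19.3 to 21.4 CPM), Kcnj4 128 CPM (above 78.4 to 83.5 CPM), Drd2 114 CPM (above 1.71 to 2.08 CPM), Isl1 4.22 CPM (above 0 to 0 CPM), Junb 35.2 CPM (below 99.7 to 101 CPM), Dlx5 5.93 CPM (above 2.86 to 3.13 CPM) and Sox2 29.9 CPM (above 28.4 to 28.5 CPM), beside the range of the other 3 libraries of the group.

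In cerebellum WT 2 the levels were Esrrb 22.1 CPM (above 11.7 to 12.8 CPM), Ppp1r17 97.2 CPM (below 222 to 243 CPM), Car8 753 CPM (below 1765 to 1896 CPM), Slc6a5 189.7 CPM (above 43.98 to 55 CPM), Glra1 55.99 CPM (above 1.11 to 8.401 CPM), Oprd1 8.78 CPM (above 0.953 to 1.65 CPM), Ntsr1 1.49 CPM (above 0 to 0.0397 CPM), Tmem119 7.17 CPM (above 4.37 to 4.83 CPM), Mbp 6982 CPM (above 2022 to 2823 CPM), Hoxb3 5.92 CPM (above 0.03801 to 0.238 CPM), Kcnj10 833 CPM (above 325 to 383 CPM), Hcn2 275 CPM (above 113 to 128 CPM) and Crh 2.62 CPM (above 0.199 to 0.532 CPM), beside the range of the other 3 libraries of the group.

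In cerebrum WT 4 the levels were Gabra6 4.84 CPM (above 0 to 0.2195 CPM), Fat2 7.05 CPM (above 0.118 to 0.893 CPM), Cbln3 11.4 CPM (above 1.44 to 2.25 CPM), Ppp1r17 1.82 CPM (above 0 to 0.248 CPM), Cnpy1 1.596 CPM (above 0 to 0.165 CPM), Crtam 0.881 CPM (above 0.0496 to 0.0592 CPM) and Pcp2 2.48 CPM (above 0.0592 to 0.2195 CPM), beside the range of the other 3 libraries of the group.

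In cerebellum WT 1 the levels were Nrgn 149.9 CPM (above 1.67 to 5.07 CPM), Kcnj4 2.85 CPM (above 0.351 to 0.765 CPM), Cacng3 14.1 CPM (above 6.23 to 7.16 CPM), Rgs14 0.9504 CPM (above 0.316 to 0.403 CPM), Egr2 0.494 CPM (above 0.0702 to 0.0805 CPM), Egr3 9.16 CPM (above 0.702 to 1.61 CPM), Tcf7l2 123.3 CPM (above 3.93 to 5.88 CPM) and Shox2 27.4 CPM (above 0.0351 to 0.926 CPM), beside the range of the other 3 libraries of the group.

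In cerebellum WT 4 the level was Kcng4 190.2 CPM (above 164 to 165 CPM), beside the range of the other 3 libraries of the group.

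In cerebrum WT 1 the level was Grm3 83.7 CPM (below 88.3 to 88.97 CPM), beside the range of the other 3 libraries of the group.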

How the results depend on the processing

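Counts of called genes (7899) and of those over a log2 fold change of 1 (2933) were recomputed. DESeq2 size factors gave 7835 and 2938, upper-quartile factors 8016 and 2925, the DESeq2 test 8253 and 2979. The split of called genes by direction was 3842 for cerebrum and 4057 for cerebellum. It became 4009 and 3826 with DESeq2 size factors, 3550 and 4466 with upper-quartile factors, and 4213 and 4040 with the DESeq2 test. Which tissue had more calls thus changed with the scaling. No filter gave 7649 and 3328, at least 10 counts in every library 7243 and 2267, robust moderation 7886 and 2923. All 14 brain libraries in one fit gave 8030 and 3171, and thinning 7682 and 2859. Leaving out 1 library gave 6738 to 8482 and 2762 to 3195. Without cerebrum WT 3 and cerebellum WT 2 together, an alternative chosen after seeing the data, the counts were 8059 and 3144. The test against a log2 fold change of 1 moved 2933 to 1469.

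The replicate block gave 7392 and 2870. Pairing correlations of the 4 replicate numbers were 0.122, 0.0159, 0.0195 and 0.116.

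In Tol libraries 2564 moved to 0 with the replicate block, to 753 to 1208 on leaving out a cerebrum, and to 3936 or 6639 with 1 cerebellum left, where that group has no replicates. DESeq2 gave 3736 and no filter 2065. The interaction count of 0 moved to 7 with DESeq2 and to 1503 without cerebellum Tol 1, again with 1 left.

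Over 181 genes tested of 184 examined there are 3200 alternative values, 3101 with the same sign and call, 74 that lost the call (14 genes), 11 that gained it (4 genes) and 14 of the other sign (4 genes). Sizes were not part of this: of the 3101, 81 (52 genes) moved over 1.5-fold, by up to 16.2-fold. The log2 fold change of Penk turned to -1.06 with the replicate block, -1.91 without cerebrum WT 3 and -1.97 without cerebrum WT 3 and cerebellum WT 2. Penk was 1.45 without cerebrum WT 1. Drd2 was not called in the main comparison (log2 fold change 2.98, adjusted p = 0.15). The log2 fold change of Drd2 turned to -1.00007 (without cerebrum WT 3) and -1.12 (without cerebrum WT 3 and cerebellum WT 2), and was 4.52 without cerebellum WT 1. Glrb and Snap25, near 0 and not called, also changed sign: the log2 fold change of Glrb to 0.0118 (DESeq2 size factors), 0.0118 (DESeq2 Wald test), 0.00409491 (at least 10 counts in every library), 0.0137 (all 14 brain libraries in one fit), 0.0602 (without cerebrum WT 1), 0.0909 (without cerebrum WT 4), 0.013 (without cerebellum WT 1) and 0.10 (without cerebellum WT 2), with -0.11 without cerebrum WT 3; and the log2 fold change of Snap25 to -0.0417 (without cerebrum WT 2), with 0.20 without cerebrum WT 4.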
